A study of Mus musculus with 4 samples.

Results

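This is an account of 32 mouse genes of cholesterol synthesis, uptake and efflux after depletion of ZBTB21, a transcription factor with a BTB domain and zinc fingers. The genes were chosen by name for their known roles, with earlier results of these data known. All 32 were found among the 55401 genes of the count table and were among the 13916 genes with enough reads to test. RNA-seq was carried out on 4 libraries of mouse embryonic stem cells (mESCs). In all of them the endogenous ZBTB21 carries, on both alleles, a C-terminal auxin-inducible degron fused to GFP, in cells that also hold OsTIR1, the plant protein through which auxin triggers destruction of a tagged protein. All cells were grown in serum with LIF, CHIR99021 (a GSK3 inhibitor) and PD0325901 (a MEK inhibitor). The untreated group had 2 libraries. The degron group had 2 libraries, from cells kept for 24 h in doxycycline (1 µg/ml) and for a further 24 h with the auxin IAA (500 µM). Whether doxycycline was also given to the untreated cells is not stated in the sources used here, and libraries of cells with normal ZBTB21 under both additions were not analysed here, so loss of ZBTB21 and the additions themselves cannot be told apart. How many knock-in clones gave the RNA and whether replicates were separate cultures is not given in the labels. The p-values below therefore reflect no more than the variation among 4 libraries, part or all of which may be technical.

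Cholesterol is built from acetyl-CoA through mevalonate, farnesyl diphosphate, squalene and lanosterol. When membranes of the endoplasmic reticulum are poor in sterol, SCAP carries the transcription factors SREBP1 and SREBP2 to the Golgi, where they are cut free to switch on the synthesis genes. When sterol is plentiful, INSIG proteins hold SCAP back, and oxysterols activate the nuclear receptors LXRα and LXRβ, which switch on genes of sterol export. Pluripotent cells divide fast and need sterol for new membranes.

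Library totals ranged from 8344408 to 10604451 counts. Levels below are CPM, the reads of a gene relative to its library size after TMM scaling, and a log2 fold change is degron minus untreated. A gene was called where its adjusted p from edgeR's quasi-likelihood test was under 0.05. The spread beyond sampling noise (common biological coefficient of variation) was 3.31%. With 2 libraries against 2 the smallest two-sided p of an exact permutation test is 0.333, so calls rest on the edgeR model. Bulk RNA cannot separate a change per cell from a change in which cells are present. Summed over 8 markers, embryonic stem cell genes stood at 5469 and 5596 CPM of unscaled library totals in untreated cells and at 5828 and 5825 CPM in degron cells. These markers did not move together, since edgeR called Sox2 (-0.31) and Nanog (-0.22) lower and Tfcp2l1 (0.44), Klf2 (0.40) and Esrrb (0.16) higher. On the same scale, 7 primitive endoderm markers summed to 10.5 and 10.5 CPM and then 16.3 and 16.2 CPM, 8 fibroblast markers (4 of them, Postn, Dcn, Lum and Twist2, at 0) to 9.43 and 10.8 CPM and then 4.86 and 3.24 CPM, 5 neural markers to 77.3 and 84.7 CPM and then 64.5 and 70.1 CPM, and 5 hepatocyte markers (2 at 0, Alb and Ttr) to between 2.16 and 4.35 CPM. Most of the fibroblast sum was Thy1, at 8.20 and 9.65 CPM and then 3.31 and 2.04 CPM, while Col1a1 had a log2 fold change of 0.58 (edgeR adjusted p = 0.304). Tubb3 made most of the neural sum, at 62.4 and 71.0 CPM and then 51.4 and 59.0 CPM. Both Tubb3 (-0.30) and Map2 (-1.01) were called lower by edgeR. Sox1, at 6.41 and 6.79 CPM and then 9.17 and 7.55 CPM, was the 1 neural marker higher in both degron libraries. It was not called (edgeR adjusted p = 0.18). Gata4 made most of the primitive endoderm sum, at 6.13 and 6.79 CPM and then 9.39 and 10.4 CPM. The part of these markers in the results was not tested. Zbtb21 mRNA, which cannot check a degron that acts on the protein, was at 61.7 and 56.9 CPM in untreated and 130 and 133 CPM in degron cells.

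The genes that make cholesterol were mostly lower in degron cells, and of the 5 genes of the LXR arm edgeR called 4 higher and DESeq2 only Abca1. The 4 include Nr1h3, which had enough reads to be tested through the degron libraries alone. Abca1, short of reads in untreated replicate 2, also needed the degron libraries to be tested. Of the 32 genes, 15 were called lower (46.9%, against 21.6% of all genes tested) and 7 were called higher (21.9%, against 22.2% of all genes tested). The remaining 10 did not pass. The share lower was more than the background and the share higher was close to it. The set was chosen with earlier results of these data known, so this comparison is a description and not a test. The median log2 fold change of the 32 genes was -0.21, against 0.01 for all genes tested. Both degron libraries lay below both untreated libraries for 19 genes (59.4%, against 34.4% of all genes tested) and above both for 9 genes (28.1%, against 36.3%). DESeq2 called 13 of the 31 genes to which it gave an adjusted p lower (41.9%, against 11.2% of the genes it tested) and 2 higher (6.45%, against 10.8%). Most changes were moderate. With a 1.5-fold minimum (glmTreat in edgeR), only Mvd and Dhcr7 were called lower (6.25%, against 1.72% of all genes) and only Abca1 higher (3.12%, against 2.06%).

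**Figure D1:**
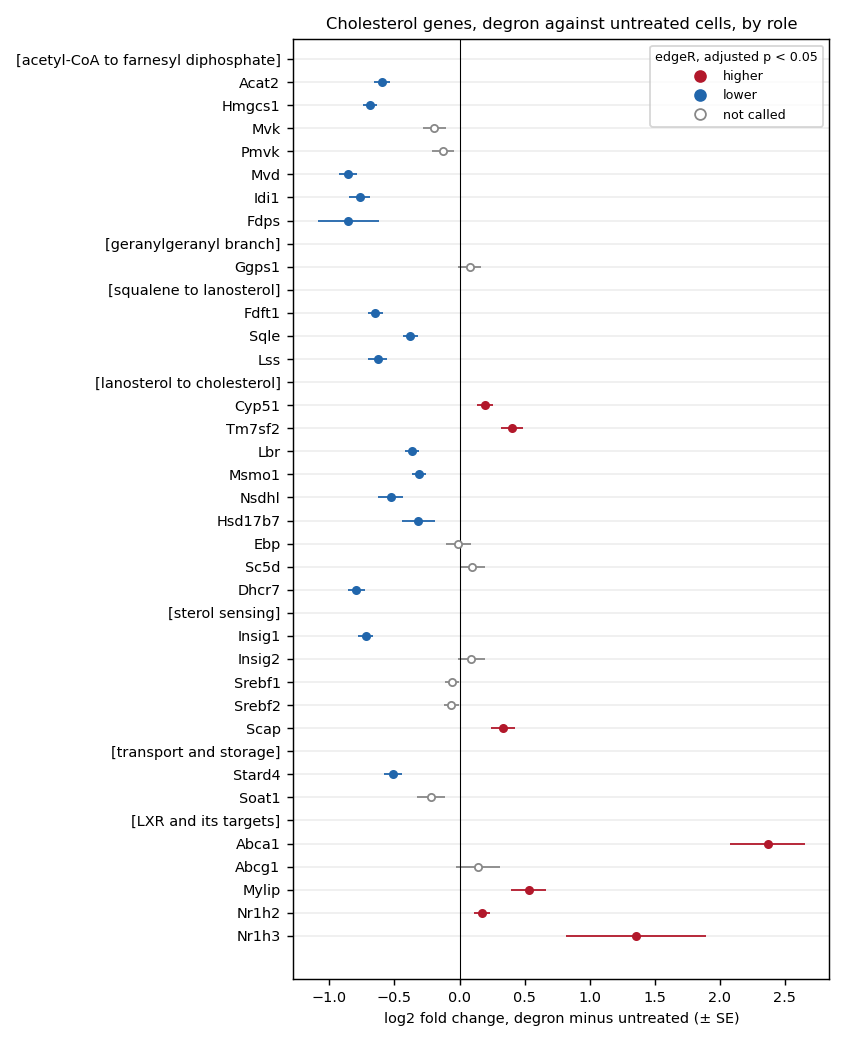
Log2 fold change (degron minus untreated, x axis) of each of the 32 cholesterol genes, grouped by role, with bars for the SE from edgeR (2 libraries per group). Blue points were called lower, red points higher and open grey points were not called. The 5 genes called lower in the first role lie between -0.86 and -0.60, and Abca1 stands at 2.37.

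Promoter sequence is shown first because the synthesis genes are classical targets of SREBP, which binds sterol regulatory elements beside boxes for the factor NF-Y. RefSeq windows of GRCm38.p6, from 250 bases before to 50 bases after a start, were matched for 27 of the 32 genes (36 windows), and the other 5 (Fdps, Fdft1, Sqle, Stard4 and Abcg1) were not scanned. The core TCACNCCA, searched on both strands, was found in the windows of 3 genes, Hmgcs1, Msmo1 and Srebf2 (11.1% of the 27, against 4.55% of 10278 tested genes with a window and 4.97% of all 27025 genes with one). The NF-Y box CCAAT was found for 22 genes (81.5%, against 43.5% and 41.1%), and the GC box GGGCGG for 23 (85.2%, against 69.3% and 38.2%). TGATGNAA, the core bound by C/EBP and ATF pairs, was found for Idi1 and Insig2 (7.41%, against 2.66% and 4.51%). A match is a description of letters and not a bound site, and a window without a match says nothing of the factor. The windows below are the 3 with a sterol element core, and that of Mvk, which holds 5 NF-Y boxes and also the start of the neighbouring gene Mmab. Capitals mark the sterol element core and each CCAAT box, read as ATTGG where it lies on the other strand. Coordinates are GRCm38.p6 and each is printed 5′ to 3′ on the strand of the gene. Hmgcs1 (chr13:119690101-119690400, plus strand), Msmo1 (chr8:64733529-64733828, minus strand), Srebf2 (chr15:82147019-82147318, plus strand) and Mvk (chr5:114444019-114444318, plus strand) read as follows.
Hmgcs1: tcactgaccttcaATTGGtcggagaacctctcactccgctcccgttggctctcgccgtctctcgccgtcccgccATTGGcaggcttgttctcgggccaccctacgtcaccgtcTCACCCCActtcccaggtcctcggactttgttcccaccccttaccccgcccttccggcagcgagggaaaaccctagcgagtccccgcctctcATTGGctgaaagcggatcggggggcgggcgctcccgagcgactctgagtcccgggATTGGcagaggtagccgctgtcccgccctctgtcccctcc
Msmo1: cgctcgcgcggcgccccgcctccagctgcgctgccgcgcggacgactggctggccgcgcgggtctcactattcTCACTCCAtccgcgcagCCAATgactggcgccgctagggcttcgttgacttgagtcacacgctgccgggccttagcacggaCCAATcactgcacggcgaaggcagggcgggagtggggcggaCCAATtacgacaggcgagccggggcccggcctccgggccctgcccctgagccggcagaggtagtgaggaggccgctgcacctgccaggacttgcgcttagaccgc
Srebf2: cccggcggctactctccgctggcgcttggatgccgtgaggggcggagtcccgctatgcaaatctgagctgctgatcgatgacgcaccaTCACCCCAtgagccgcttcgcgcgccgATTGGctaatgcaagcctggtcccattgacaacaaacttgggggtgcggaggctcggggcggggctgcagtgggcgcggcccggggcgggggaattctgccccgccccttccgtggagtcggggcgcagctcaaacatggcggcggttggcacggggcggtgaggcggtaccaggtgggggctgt
Mvk: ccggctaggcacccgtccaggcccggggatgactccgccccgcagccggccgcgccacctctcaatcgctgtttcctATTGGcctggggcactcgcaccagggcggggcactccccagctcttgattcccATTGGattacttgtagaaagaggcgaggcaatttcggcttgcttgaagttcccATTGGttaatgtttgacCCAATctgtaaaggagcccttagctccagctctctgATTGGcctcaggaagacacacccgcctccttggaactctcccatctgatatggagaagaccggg

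Positions are counted from the RefSeq start, negative before it. In Hmgcs1 the element TCACCCCA began at position -137, with 4 NF-Y boxes in the window. In Msmo1 the element TCACTCCA began at position -177, with 3 NF-Y boxes. In Srebf2 the element TCACCCCA began at position -162, with 1 NF-Y box. These 3 genes did not share a response, since Hmgcs1 and Msmo1 were called lower and Srebf2 was not called.

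The 7 enzymes measured here between acetyl-CoA and farnesyl diphosphate are not every step of that route. Of them, edgeR called 5 lower and 0 higher, against 21.6% and 22.2% of all genes tested. At an unadjusted p under 0.05 in edgeR, 0 were higher as well. DESeq2 called 4 lower and 0 higher, against 11.2% and 10.8% of the genes it tested. The median log2 fold change was -0.69. Hmgcs1 (chromosome 13, 119690379 to 119708260, mm10), the synthase that joins acetoacetyl-CoA and acetyl-CoA, stood at 270 and 269 CPM in untreated cells and at 180 and 153 CPM in degron cells. The groups were well apart although the degron pair was uneven, and the log2 fold change was -0.69 ± 0.06 (SE, edgeR adjusted p = 2.71e-17). Acat2, the cytosolic thiolase that supplies acetoacetyl-CoA, stood at 143 and 133 CPM in untreated and 97.3 and 85.5 CPM in degron cells (log2 fold change -0.60 ± 0.06, edgeR adjusted p = 1.8e-13). Its close copy Acat3 had only 3 to 9 counts in any library. Mvd (chromosome 8, 122433601 to 122443422), which decarboxylates mevalonate diphosphate, was at 87.5 and 82.3 CPM and then at 45.7 and 48.2 CPM. This was 1.81-fold lower (log2 fold change -0.86 ± 0.07, edgeR adjusted p = 2.21e-17), and with the thinly counted Fdps it was the largest fall of the 32 genes. Idi1, which isomerizes the resulting isoprene unit, was at 55.9 and 60.4 CPM and then 33.2 and 35.1 CPM (-0.77 ± 0.08, edgeR adjusted p = 7.07e-13).

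Neither of the kinases between HMGCS1 and MVD was called. Mvk, mevalonate kinase, stood at 36.0 and 38.5 CPM in untreated cells and at 32.5 and 32.5 CPM in degron cells, which did not pass (log2 fold change -0.19 ± 0.09, edgeR adjusted p = 0.0721). Pmvk, the kinase that follows, was at 44.5 and 43.0 CPM and then 39.9 and 40.4 CPM (-0.13 ± 0.08, edgeR adjusted p = 0.213). In both genes the degron libraries lay below the untreated ones, but the difference did not pass.

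Fdps, which makes farnesyl diphosphate, was thinly counted, with 73 and 58 counts in untreated and 29 and 35 counts in degron libraries. Its log2 fold change of -0.86 ± 0.23 was called by edgeR (adjusted p = 0.00188) but not by DESeq2 (adjusted p = 0.112), and leaving out degron replicate 1 ended the edgeR call (adjusted p = 0.0735). In the annotation 1124 of its 4208 exonic bases are shared with Gm43738 on the same strand, which had 0 counts, so its level is uncertain. Ggps1, which turns farnesyl diphosphate toward geranylgeranyl groups and away from sterol, stood at 35.0 and 37.6 CPM in untreated and 37.7 and 38.8 CPM in degron cells (0.08 ± 0.09, edgeR adjusted p = 0.494).

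All 3 enzymes from farnesyl diphosphate to lanosterol were called lower, against 21.6% of all genes tested, with a median of -0.63. Fdft1, squalene synthase and the first step committed to sterol, was at 186 and 176 CPM in untreated cells and at 113 and 118 CPM in degron cells (log2 fold change -0.65 ± 0.06, edgeR adjusted p = 3.84e-16). Its exons share 774 bases with Ctsb on the other strand, and Ctsb had a log2 fold change of 0.13. Sqle, the squalene epoxidase, was at 150 and 148 CPM and then 119 and 110 CPM (-0.38 ± 0.06, edgeR adjusted p = 5.83e-08). Lss, which closes the rings of lanosterol, was at 96.9 and 88.6 CPM in untreated cells but at 69.9 and 49.6 CPM in the 2 degron libraries. The degron pair was uneven, the groups did not overlap, and the log2 fold change was -0.63 ± 0.08 (edgeR adjusted p = 1.05e-10, DESeq2 adjusted p = 0.0445).

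The 9 enzymes from lanosterol to cholesterol were mixed, with a median of -0.31. By edgeR 5 were called lower, 2 higher and 2 not, against 21.6% lower and 22.2% higher of all genes tested. By DESeq2 4 were lower and 1 higher, against 11.2% and 10.8% of the genes it tested. Dhcr7 (chromosome 7, 143823145 to 143848410), the reductase of the last step of one route to cholesterol, was at 124 and 114 CPM in untreated cells and at 73.6 and 63.7 CPM in degron cells. It was 1.73-fold lower (log2 fold change -0.79 ± 0.06, edgeR adjusted p = 1.88e-17). The 3 enzymes that act after CYP51 and take off the remaining pair of methyl groups were all called lower by edgeR. Msmo1, the methyl sterol oxidase, was at 205 and 216 CPM and then 170 and 169 CPM (-0.31 ± 0.05, edgeR adjusted p = 2.26e-06). Nsdhl, the decarboxylating dehydrogenase, was at 37.7 and 37.0 CPM and then 26.7 and 25.0 CPM (-0.53 ± 0.09, edgeR adjusted p = 3.24e-06). Hsd17b7, the keto reductase, was at 18.9 and 19.3 CPM and then 15.2 and 15.5 CPM. Its call was marginal (-0.32 ± 0.13, edgeR adjusted p = 0.0358, DESeq2 adjusted p = 0.316) and was lost when any one library was left out (edgeR adjusted p between 0.0566 and 0.156).

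A pair of enzymes that can carry out the same reduction moved in opposite directions. Lbr, the lamin B receptor of the inner nuclear membrane, also has sterol reductase activity, and it stood at 341 and 341 CPM in untreated and 265 and 265 CPM in degron cells (log2 fold change -0.36 ± 0.05, edgeR adjusted p = 3.04e-08). Tm7sf2, the dedicated reductase of the endoplasmic reticulum, stood at 37.0 and 34.9 CPM and then 47.1 and 48.2 CPM (0.40 ± 0.08, edgeR adjusted p = 3.37e-05, DESeq2 adjusted p = 0.024). Per kilobase of exon, Lbr was 8.51 and 9.04 times as abundant as Tm7sf2 in the untreated libraries and 5.21 and 5.07 times in the degron libraries. Tm7sf2 shares 532 exonic bases with Vps51 on the same strand, and Vps51 did not pass (0.17, edgeR adjusted p = 0.115).

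Cyp51, the lanosterol demethylase just upstream of these reductases, was the other synthesis gene called higher, at 98.3 and 96.7 CPM in untreated and 114 and 109 CPM in degron cells (log2 fold change 0.19 ± 0.06, edgeR adjusted p = 0.00532). DESeq2 did not call it (adjusted p = 0.146), and leaving out degron replicate 1 ended the edgeR call (adjusted p = 0.134). Its exons share 166 bases with Akap9 on the other strand, which was called higher at 0.52. Neither Ebp, the sterol isomerase, nor Sc5d, the sterol desaturase, was called. Ebp stood at 29.5 and 35.3 CPM and then 31.9 and 32.4 CPM (-0.01 ± 0.10, edgeR adjusted p = 0.951), and Sc5d at 34.6 and 28.7 CPM and then 36.2 and 31.6 CPM (0.10 ± 0.10, edgeR adjusted p = 0.431), so the groups overlapped for both.

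Over the 19 synthesis genes measured, 13 were called lower, 2 higher and 4 not, with a median of -0.38. Among all genes tested, 21.6% were called lower and 22.2% higher. The summed level of the 19 genes was 2002 and 1968 CPM in untreated cells and 1515 and 1436 CPM in degron cells. Lbr alone gave 341 and 341 CPM and then 265 and 265 CPM of this. The plot of levels by library shows the separation gene by gene.

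**Figure D2:**
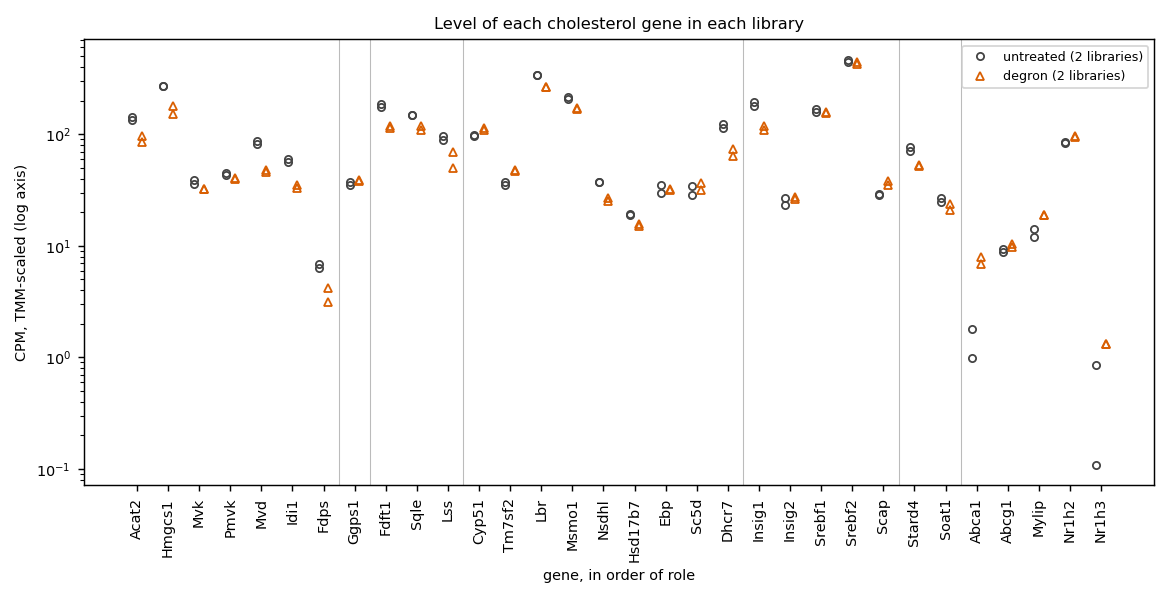
Level of each of the 32 genes in each library, in CPM of TMM-scaled library size on a log axis, with grey circles for the 2 untreated and orange triangles for the 2 degron libraries. Grey lines separate the roles. Levels run from Nr1h3, at 0.108 CPM in its lowest library, to Srebf2, at 466 CPM in its highest.

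Among the 5 genes of sterol sensing, Insig1 was called lower, Scap was called higher and the transcription factors themselves were not called. Insig1 (chromosome 5, 28071363 to 28078662), which holds SCAP in the endoplasmic reticulum and is itself a target of SREBP, was at 196 and 179 CPM in untreated cells and 119 and 109 CPM in degron cells. It was 1.65-fold lower (log2 fold change -0.72 ± 0.06, edgeR adjusted p = 7.99e-18), the smallest p of the 32 genes. Insig2, which encodes the second retention protein, was at 26.6 and 23.2 CPM and then 27.2 and 26.0 CPM (0.09 ± 0.10, edgeR adjusted p = 0.508). Per kilobase, Insig1 was 8.28 and 8.68 times as abundant as Insig2 in untreated libraries and 4.93 and 4.69 times in degron libraries.

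Srebf2, which encodes SREBP2, the main driver of cholesterol synthesis, was at 466 and 442 CPM in untreated and 441 and 429 CPM in degron cells (log2 fold change -0.06 ± 0.05, edgeR adjusted p = 0.372). Srebf1, which encodes SREBP1 and is better known for fatty acid synthesis, was at 169 and 158 CPM and then 159 and 156 CPM (-0.06 ± 0.06, edgeR adjusted p = 0.422). The ratio of Srebf2 to Srebf1 per kilobase lay between 2.16 and 2.20 in all 4 libraries. RNA levels do not measure how much of either protein is cut and active. Scap, the escort, was at 29.4 and 28.4 CPM in untreated and 35.3 and 37.7 CPM in degron cells (0.34 ± 0.09, edgeR adjusted p = 0.00196, DESeq2 adjusted p = 0.119).

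Stard4, a soluble carrier that moves cholesterol between membranes and is a known SREBP2 target, was called lower. It stood at 77.6 and 70.9 CPM in untreated and 51.7 and 52.7 CPM in degron cells (log2 fold change -0.51 ± 0.07, edgeR adjusted p = 5.84e-09). Soat1, which esterifies cholesterol for storage, was at 26.8 and 24.8 CPM and then 23.5 and 20.9 CPM (-0.22 ± 0.11, edgeR adjusted p = 0.0967). Its libraries did not overlap, but the difference did not pass.

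Of the 5 genes of the LXR arm, edgeR called 4 higher and 0 lower (0 also at an unadjusted p under 0.05), with a median of 0.53. For all genes tested the edgeR shares were 22.2% higher and 21.6% lower. Nr1h3 is among these 4 and in the median, although it had enough reads to be tested through the degron libraries alone. Abca1 fell short of the low-count filter in untreated replicate 2 (9 counts), so it too needed the degron libraries to be tested. DESeq2 called 1 higher, Abca1, and 0 lower, against 10.8% and 11.2% of the genes it tested. Abca1 (chromosome 4, 53030787 to 53159895), the transporter that hands cholesterol to lipid-poor apolipoprotein, was the largest change of the 32. It had 19 and 9 counts in untreated and 72 and 57 counts in degron libraries, or 1.80 and 0.976 CPM against 7.85 and 6.81 CPM. The fitted log2 fold change was 2.37 ± 0.29, which is 5.16-fold (edgeR adjusted p = 9.95e-11, DESeq2 adjusted p = 1.02e-05). In untreated cells it was the least abundant of the 32 genes per kilobase of exon, at 0.134 CPM per kilobase, against 0.707 in degron cells. Abcg1, the other classical LXR transporter, was at 8.81 and 9.43 CPM and then 9.82 and 10.3 CPM (0.14 ± 0.17, edgeR adjusted p = 0.523), so the pair did not both pass.

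Mylip, a ubiquitin ligase that sends lipoprotein receptors for degradation and is an LXR target, stood at 14.0 and 11.9 CPM in untreated and 18.8 and 18.9 CPM in degron cells (log2 fold change 0.53 ± 0.13, edgeR adjusted p = 0.000698, DESeq2 adjusted p = 0.0738). Nr1h2, which encodes LXRβ, was at 83.7 and 85.2 CPM and then 96.0 and 94.6 CPM (0.18 ± 0.06, edgeR adjusted p = 0.0161). This small difference was not called by DESeq2 (adjusted p = 0.235) and was lost without untreated replicate 1, degron replicate 1 or degron replicate 2 (edgeR adjusted p of 0.0778, 0.128 and 0.0726). Nr1h3, which encodes LXRα, had 9 and 1 counts in untreated and 12 and 11 counts in degron libraries, or 0.852 and 0.108 CPM against 1.31 and 1.31 CPM. Its call rests on few reads. The gene passed the low-count filter through the degron libraries alone, so only a high level there let it be tested. With a mean of at least 1 CPM required in both groups it was not tested, and 6 of the 32 genes were called higher. The fitted 1.35 ± 0.54 (edgeR adjusted p = 0.0340) became 0.62 without untreated replicate 2 (edgeR adjusted p = 0.485), was not called without either degron library (edgeR adjusted p = 0.147 and 0.142), and had no adjusted p from DESeq2. Without degron replicate 1, Abca1, Mylip, Scap and Tm7sf2 were the 4 of the 32 genes called higher.

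Ordered by level per kilobase of exon, the most abundant of the 32 genes in untreated cells were Lbr (71.6 CPM per kilobase), Srebf2 (63.2), Insig1 (60.7) and Hmgcs1 (58.6). In degron cells the order at the top was Srebf2 (60.5), Lbr (55.7), Insig1 (36.8) and Hmgcs1 (36.3). The levels of Insig1 and Hmgcs1 lay close together in both groups. At the other end, Nr1h3 was at 0.191 CPM per kilobase in untreated and 0.521 in degron cells, beside the levels of Abca1 given above.

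Genes outside the 32 were taken from 6 lists of 66 genes with a textbook role in sterol metabolism, of which 64 were tested. Of these 64, edgeR called 22 higher and 11 lower. Among all 13916 genes tested it called 3087 higher (22.2%) and 3006 lower (21.6%). The share of the lists called higher was thus above the background, and the share called lower was below it. The lists were chosen with earlier results of these data known, so this is a description and not a test. Their median log2 fold change was 0.09. DESeq2 called 10 higher and 8 lower. Its own background was 10.8% higher and 11.2% lower, and both shares of the lists lay above it, the lower one only slightly.

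The citrate and acetyl-CoA list, which supplies the carbon, was the only one of the 6 with more genes lower than higher, with 3 of 5 called lower (also 3 in DESeq2) and a median of -0.24. In edgeR 0 were higher, also at an unadjusted p under 0.05, and in DESeq2 0 as well. Acat1, the mitochondrial thiolase, was at 38.4 and 34.7 CPM and then 26.2 and 25.0 CPM (-0.52 ± 0.10, edgeR adjusted p = 6.71e-06). Acss2, which makes cytosolic acetyl-CoA from acetate, was at 26.1 and 24.2 CPM and then 16.3 and 19.2 CPM (-0.51 ± 0.12, edgeR adjusted p = 0.000201). On the other strand it shares 395 exonic bases with Gss, called higher at 0.42, and 197 with Ggt7, called lower at -0.81. The other gene called lower was Acly, which makes cytosolic acetyl-CoA from citrate, at -0.24.

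In the list of SREBP cleavage and sterol-regulated degradation, 3 of 11 genes were called higher and 2 lower, and in DESeq2 2 and 2. Rnf145, a sterol-linked ubiquitin ligase, stood at 104 and 100 CPM in untreated and 67.2 and 67.2 CPM in degron cells (log2 fold change -0.60 ± 0.06, edgeR adjusted p = 7.01e-13). Tmem97, a sterol-binding membrane protein, was at 92.0 and 94.4 CPM and then 64.6 and 67.5 CPM (-0.50 ± 0.06, edgeR adjusted p = 9.82e-10). Pgrmc1, a heme-binding membrane protein, was at 61.3 and 67.5 CPM and then 85.7 and 83.2 CPM (0.40 ± 0.07, edgeR adjusted p = 8.62e-07). Erlin2, a membrane protein of the degradation machinery of the endoplasmic reticulum, was called higher as well, at 102 and 95.7 CPM and then 130 and 119 CPM (0.33 ± 0.06, edgeR adjusted p = 2.77e-06). Neither protease that cuts SREBP, Mbtps1 nor Mbtps2, was called.

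Among 9 lipoprotein receptors and adaptors, 4 were called higher and 1 lower, and in DESeq2 2 and 1. Vldlr, a receptor for triglyceride-rich lipoprotein, was at 8.62 and 7.70 CPM in untreated and 24.4 and 29.9 CPM in degron cells (log2 fold change 1.72 ± 0.14, edgeR adjusted p = 6.87e-18). Lrp8, its close relative and the other receptor for reelin, was at 22.3 and 20.8 CPM and then 15.1 and 13.0 CPM (-0.62 ± 0.13, edgeR adjusted p = 3.95e-05), so these relatives moved in opposite directions. Lrpap1, the chaperone of this receptor family, was at 114 and 115 CPM and then 184 and 187 CPM (0.70 ± 0.06, edgeR adjusted p = 6.54e-18).

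Esterification, oxysterol and other efflux genes gave 5 higher and 1 lower of 10 tested, and in DESeq2 3 higher and 0 lower. Soat2, the second sterol esterifying enzyme, was at 6.25 and 5.42 CPM in untreated and 19.9 and 22.5 CPM in degron cells (log2 fold change 1.85 ± 0.16, edgeR adjusted p = 6.79e-17). Per kilobase, the ratio of Soat2 to Soat1 was 1.03 and 0.966 in untreated libraries and 3.75 and 4.75 in degron libraries. Nceh1, a hydrolase of stored cholesterol ester, moved the same way, at 29.1 and 25.9 CPM and then 55.4 and 52.4 CPM (0.97 ± 0.09, edgeR adjusted p = 5.62e-16). Cyp39a1, an oxysterol hydroxylase, was at 4.73 and 5.20 CPM and then 4.04 and 2.27 CPM, and its call (-0.63 ± 0.26, edgeR adjusted p = 0.0446) was not made by DESeq2 (adjusted p = 0.343). Without degron replicate 2 its log2 fold change was -0.29 (edgeR adjusted p = 0.509). Ch25h had 0 counts in all libraries and Abcg4 was under the filter.

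Intracellular sterol transport gave 4 higher and 2 lower of 14, and in DESeq2 2 higher and 1 lower. Stard5, a sterol carrier related to Stard4, was at 20.2 and 21.7 CPM in untreated and 45.7 and 46.3 CPM in degron cells (log2 fold change 1.14 ± 0.09, edgeR adjusted p = 3.01e-17), the direction opposite to that of Stard4. Npc2, which binds cholesterol in the lysosome, was at 215 and 233 CPM and then 256 and 270 CPM (0.23 ± 0.05, edgeR adjusted p = 0.000245). Scp2, a peroxisomal sterol carrier, was called lower at -0.27 and Vapb, a tether of the endoplasmic reticulum, at -0.20. Vapb was not called by DESeq2 (adjusted p = 0.164).

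The 15 genes of the isoprenoid branches, which use products of the same early pathway, gave 6 higher and 2 lower in edgeR, and in DESeq2 1 higher (Rabggta) and 1 lower (Rabggtb). The subunits of one enzyme moved apart. Rabggta, the alpha subunit of the transferase that attaches geranylgeranyl groups to Rab proteins, was at 68.3 and 68.7 CPM in untreated and 105 and 102 CPM in degron cells (log2 fold change 0.60 ± 0.06, edgeR adjusted p = 8.86e-13). Rabggtb, its beta subunit, was at 90.7 and 92.8 CPM and then 61.4 and 61.3 CPM (-0.58 ± 0.07, edgeR adjusted p = 9.8e-12). Dolk, dolichol kinase, was called higher at 0.63 and Coq2, which attaches the isoprene tail of coenzyme Q, lower at -0.29, and DESeq2 called neither (adjusted p = 0.0885 and 0.0699).

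**Figure D3:**
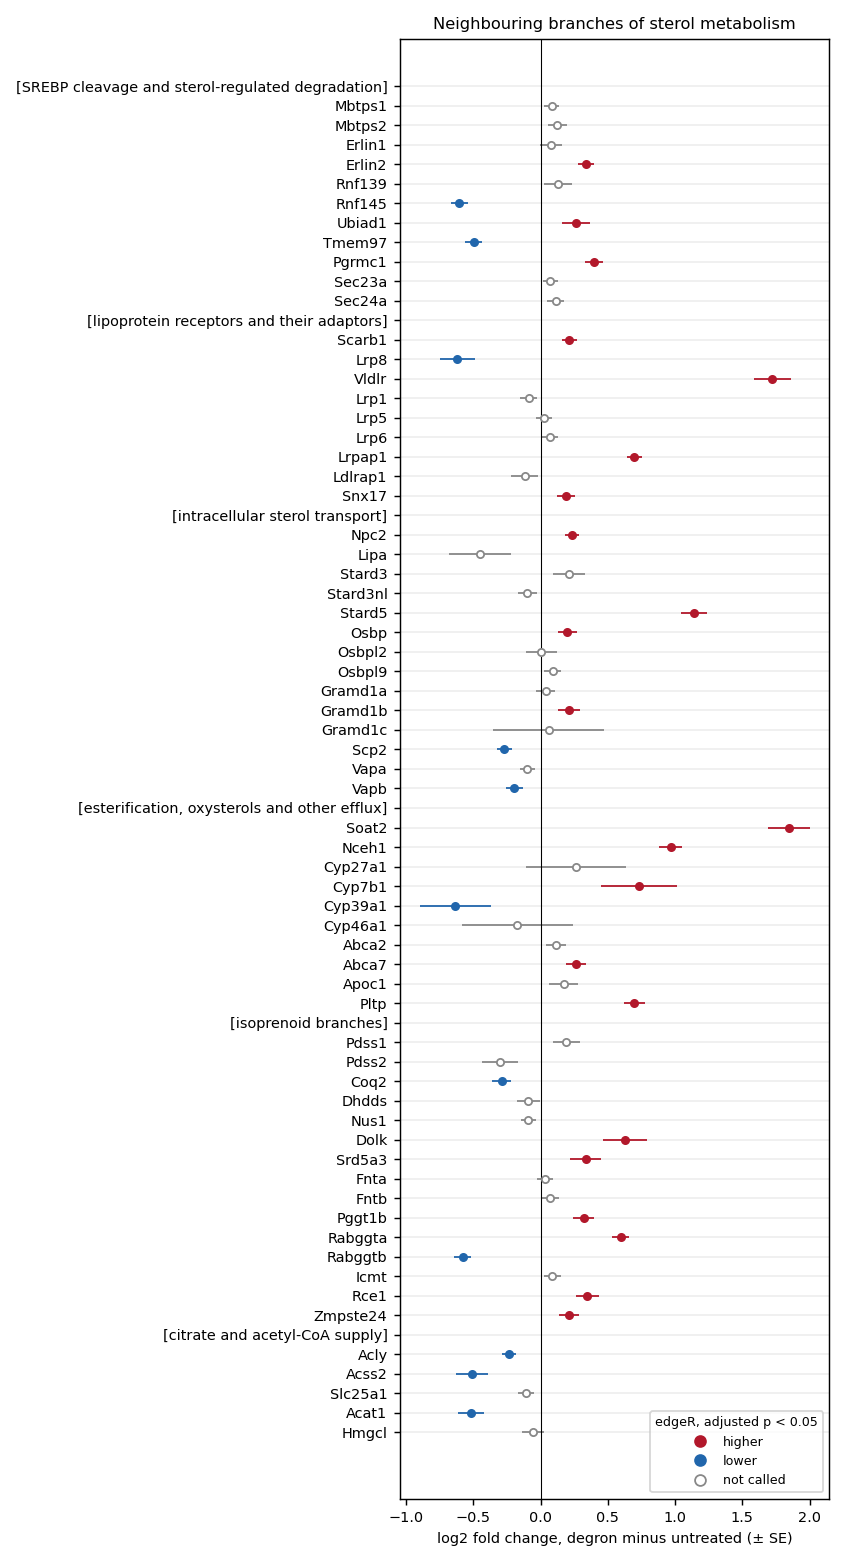
Log2 fold change (degron minus untreated, x axis, bars for the SE from edgeR) of the 64 tested genes of 6 neighbouring lists. Red points were called higher, blue points lower and open points were not called. Soat2, Vldlr and Stard5 lie above 1, and the acetyl-CoA list has 0 genes called higher.

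Several of the 32 genes have a neighbour that starts close by on the other strand. Distances are between the outermost GENCODE starts, and gene counts do not show which start of a gene was used. For 8 genes an oppositely oriented gene started within 1000 bases, and 5 of these neighbours had enough counts to test. Dhcr7 and Nadsyn1, an NAD synthetase, start 296 bases apart by this measure. A further RefSeq window of Dhcr7 (chr7:143829964-143830263) lies inside the gene. Of the Dhcr7 windows it alone holds NF-Y boxes, 2 of them. Dhcr7 was called lower, and Nadsyn1 was at 10.8 and 10.4 CPM in untreated and 17.3 and 11.9 CPM in degron cells (log2 fold change 0.47 ± 0.15, edgeR adjusted p = 0.00866). The rise of Nadsyn1 rests on degron replicate 1, without which it was 0.17 (edgeR adjusted p = 0.542), and DESeq2 did not call it (adjusted p = 0.219). Mvk and Mmab, an enzyme of cobalamin metabolism, start 209 bases apart, within the Mvk window printed above. Mmab was at 35.5 and 33.4 CPM and then 47.7 and 46.9 CPM (0.46 ± 0.08, edgeR adjusted p = 4.64e-06), while Mvk, at -0.19, was not called.

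In one pair both genes were called in the same direction with every library left out in turn. Nsdhl and Cetn2, which encodes a centrin, start 146 bases apart, and Cetn2 was at 32.7 and 30.9 CPM and then 21.6 and 20.9 CPM (-0.58 ± 0.10, edgeR adjusted p = 2.85e-06), beside -0.53 for Nsdhl. Acp2, a lysosomal acid phosphatase, starts 51 bases from the outermost GENCODE start of Nr1h3. Both Nr1h3 windows scanned for motifs (chr2:91194986-91195285 and chr2:91195067-91195366) lie at other starts, inside the gene. Acp2 was at 18.1 and 18.1 CPM and then 27.2 and 27.6 CPM (0.60 ± 0.11, edgeR adjusted p = 7.53e-06). Acp2 shares 652 exonic bases with Ddb2 on the other strand, which was called higher at 0.42, and the call of Nr1h3 itself rests on few reads, as given above. For Ggps1 and Arid4b, a chromatin protein gene, neither was called (Arid4b 0.03, edgeR adjusted p = 0.741), and their exons share 257 bases.

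**Figure D4:**
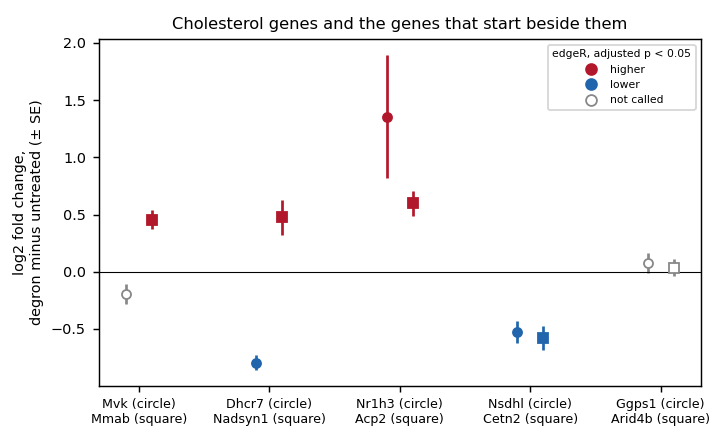
Log2 fold change (degron minus untreated, y axis, bars for the SE from edgeR) of 5 cholesterol genes (circles) and of the gene that starts head to head with each (squares). Head to head is by the outermost GENCODE starts, which need not be the starts used. Red was called higher, blue lower and open grey was not called. Dhcr7 at -0.79 and Nadsyn1 at 0.47 lie on opposite sides of 0, and Nsdhl and Cetn2 both lie below it.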

How the data were processed

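RNA was isolated with TRIzol. By the labels the libraries were made from poly(A) RNA, by the study's text from total RNA, and different kits are named. The authors deposited raw counts per gene. Reads were trimmed with cutadapt 2.6, mapped to mm10 with STAR 2.7.6a (primary alignments kept, PCR duplicates removed) and counted with featureCounts 1.6.3, per the labels and the study's methods. Strand handling is not given in the sources used here, which makes genes that share exonic bases with another gene uncertain. Symbols and coordinates came from GENCODE M21 (GRCm38), which matched 55141 of 55401 IDs, and promoter windows from RefSeq (GRCm38.p6).

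The main test was edgeR 4.0.16 in R 4.3.3 (filterByExpr, TMM, quasi-likelihood F test between the labelled groups), Benjamini-Hochberg adjusted over 13916 genes. The SE was taken as the absolute log2 fold change divided by √F. The procedure was tested on simulated data. Alternatives were DESeq2 1.42.0 (the study's tool), limma-voom (limma 3.58.1), other scalings and filters, glmTreat, the replicate block, protein-coding genes alone and each library left out.

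The members and lists were chosen with earlier results of these data known. All members were named, with the 2 largest rises and 2 largest falls called in each other list, the neighbours starting within 1000 bases on the other strand, and Zbtb21. Other genes were named after their values were seen. Some further genes of the pathway are not reported here.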

Additional observations from a re-analysis of the deposited data

How the results depend on the processing

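Of the 32 genes, DESeq2 called 2 higher, and glmTreat with its 1.5-fold minimum called 1 higher and 2 lower. Leaving out each library in turn gave 4 to 6 genes higher, with 4 without degron replicate 1, and 13 to 15 lower. Over all genes, DESeq2 called 1440 higher and 1484 lower, and glmTreat 287 and 239. In the 6 neighbouring lists DESeq2 called 10 higher and 8 lower, and glmTreat 4 higher and 0 lower (0 also at an unadjusted p under 0.05). Over the alternatives run, the values of single members kept direction and side of the threshold in 401 cases, lost the call in 39, gained it in 1 (Mvk without untreated replicate 1, edgeR adjusted p = 0.0426) and changed sign in 5, all of them for the uncalled Ebp and Sc5d. These cases are not independent, since every alternative reuses the same 4 libraries. Among them glmTreat keeps the log2 fold change of the main fit, so the direction could not change there. With library totals alone the log2 fold change of Ebp was 0.021. With each library left out in turn it ranged from -0.15 to 0.12, with 0.0051 without degron replicate 1. That of Sc5d ranged from -0.021 to 0.23, with -0.0033 without degron replicate 1, and that of the neighbour Arid4b from -0.062 to 0.14, with -0.0076 without the same library. The cause was not tested.

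The replicate numbers gave no sign of pairing, since deviations of same-numbered libraries correlated at 0.0439. With 2 libraries per group this is a single correlation, which cannot show that no pairing existed. With the replicate block, 7 of the 32 genes were higher and 15 lower, and 3369 and 3276 of all genes. Thinly counted genes such as Abca1, Fdps and Nr1h3 have the least certain sizes of change. Where 1 library of a group was left out, the lone library was assumed to vary like the other group.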
